A study of Saccharomyces cerevisiae with 8 samples.

Results

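The 42 genes described here act in meiosis and sporulation of the budding yeast Saccharomyces cerevisiae, and were measured in cultures that were growing in galactose medium. They were taken by systematic name as genes of meiotic recombination, meiotic regulation and the spore wall, and all 42 are present among the 7126 features of the deposited table. By role they were divided into 5 regulators and kinases, 6 genes of double-strand break formation, 4 of strand exchange, 9 of the chromosome axis, synapsis and segregation, 7 of the prospore membrane and its septins, and 11 of the spore wall and late spore stage.

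RNA was sequenced from 8 cultures, 2 of each of 4 genotypes: WT (strain GH69), the cac2 mutant (GH182), the psh1 mutant (GH72) and the psh1 cac2 mutant (GH194). Psh1 is a ubiquitin ligase that targets the centromeric histone H3 variant Cse4, while Cac2 belongs to chromatin assembly factor I, which deposits histones behind replication forks. Every culture, WT included, carried Cse4 overexpression that was switched on with 4% galactose after 2 h of growth in raffinose medium at 30 °C, and was then grown for 10 h, so the effect of the overexpression itself is not part of any comparison. Each genotype was represented by 1 strain whose duplicate cultures shared it, so a difference between genotypes cannot be told apart from one between those strains, and p-values measure the spread between cultures only. The labels give neither mating type nor ploidy.

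In budding yeast, starved diploid cells that express both mating type regulators enter meiosis when Ime1 is made and activates the early genes through the DNA-binding protein Ume6, which represses the same genes in growing cells by recruiting histone deacetylase and chromatin remodelling complexes to a promoter element called URS1. The early genes make the proteins that break, pair and recombine the chromosomes. Ndt80 then switches on the middle genes, whose products divide the nucleus, build the prospore membrane around each daughter nucleus and lay down the spore wall.

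The libraries held 30767522 to 34561763 reads over the table's features, recovered from the steps of the RPKM values (read number divided by feature length and scaled library size). PSH1 had 0 to 2 reads in the psh1 and psh1 cac2 libraries against 932 to 1128 in the others, and CAC2 had 1 to 7 reads in the cac2 and psh1 cac2 libraries against 837 to 1155. CSE4 stood at 16625 and 14586 RPKM in WT, 17956 and 19968 in cac2, 10127 and 9616 in psh1, with 23546 and 22798 in psh1 cac2, so the induced gene itself was lowest in psh1 and highest in psh1 cac2. As a check of cell type, 5 of 6 a-specific genes were abundant (STE2 at 267 to 421 RPKM and the pheromone gene MFA2 at 723 to 1164), while BAR1 was listed at 0 in all 8 libraries. The 4 alpha-specific genes were low but read in every library (STE3 at 4.44 to 8.37 RPKM, MF(ALPHA)1 at 8.94 to 19.3), and the summed level of the a-specific genes was 1502 to 2437 RPKM against 34.7 to 52.3. RME1, which encodes a repressor of IME1 that haploid cells make, stood at 109 to 150 RPKM.

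The promoters carried the 2 motif cores in different roles. The URS1 core bound by Ume6 (GGCGGC, either strand) lay between 250 bases before and 50 bases after the annotated start codon in 15 of the 42 genes (35.7%), against 308 of 6001 promoters of all genes (5.13%). The Ndt80 core (CACAAA, either strand, with no other spelling searched) lay in that window in 20 members (47.6%), against 1130 of the 6001 (18.8%). The 2 cores can share 1 base at their ends; SMK1, the 1 member with both, holds them apart, at 151 and 79 bases before the start codon, and 8 members held neither. URS1 was found in all 4 strand exchange genes, 4 of 6 break formation genes, 6 of 9 axis and segregation genes and 1 of 5 regulators, and in 0 of 7 prospore membrane and 0 of 11 spore wall genes. The Ndt80 core showed the other order, with 6 of 7 prospore membrane genes, 8 of 11 spore wall genes, 4 of 5 regulators and 2 of 9 axis genes, and none of the break formation and strand exchange genes. Bases farther upstream were not searched, although IME2, for 1, lies 1373 bp from its upstream neighbour. A match is a run of letters and no evidence of binding.

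The URS1 core is shown in capitals with 12 bases on either side for early genes whose transcript levels are described below, read 5′ to 3′ on the strand of the gene, so GCCGCC is the core on the opposite strand (sacCer3, RefSeq assembly R64). The core starts 88 bases before the start codon in NDJ1, 171 in HOP1, 138 in DMC1, 68 in HED1, 91 in REC104, 92 in REC114 and 109 in SAE3.
NDJ1, chrXV:117525-117554, minus strand: gcgtagaagttgGGCGGCtattttgacaga
HOP1, chrIX:226419-226448, plus strand: gtttttaacctgGGCGGCtaaattgtactt
DMC1, chrV:548271-548300, plus strand: gaccggaaaataGCCGCCcaaggataaact
HED1, chrIV:477717-477746, plus strand: tttattaagataGCCGCCcaggttaaattc
REC104, chrVIII:412804-412833, plus strand: cgcacaatatttGGCGGCtattttccgcta
REC114, chrXIII:536103-536132, plus strand: cgttacaaggtgGGCGGCtaacttataaaa
SAE3, chrVIII:262645-262674, minus strand: gttctgcctaatGGCGGCtattctatttct

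The Ndt80 core is shown in capitals in the same way for middle and late genes that differed between genotypes, with TTTGTG for the core on the opposite strand. The core starts 114 bases before the start codon in CDA1, 166 in CDA2, 147 in CRR1, 178 in LDS1, 97 in SPR28 (which has another at 219), 120 in SPO74 and 190 in SPS4.
CDA1, chrXII:745494-745523, plus strand: ggttgatttactTTTGTGttttcaaaaaga
CDA2, chrXII:747759-747788, plus strand: tagatatttgatTTTGTGacgcaacgcaaa
CRR1, chrXII:568052-568081, minus strand: ttttaaaggcgtCACAAAaattatgtaaag
LDS1, chrI:119702-119731, minus strand: gatctttctggtTTTGTGacacatggaata
SPR28, chrIV:905132-905161, minus strand: atgcgtctacatTTTGTGtcattcccataa
SPO74, chrVII:185497-185526, minus strand: tcaatgttctctTTTGTGtcacaagaaata
SPS4, chrXV:903047-903076, minus strand: attgacgcgcgcCACAAAaacgtatcattg

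**Figure D1:**
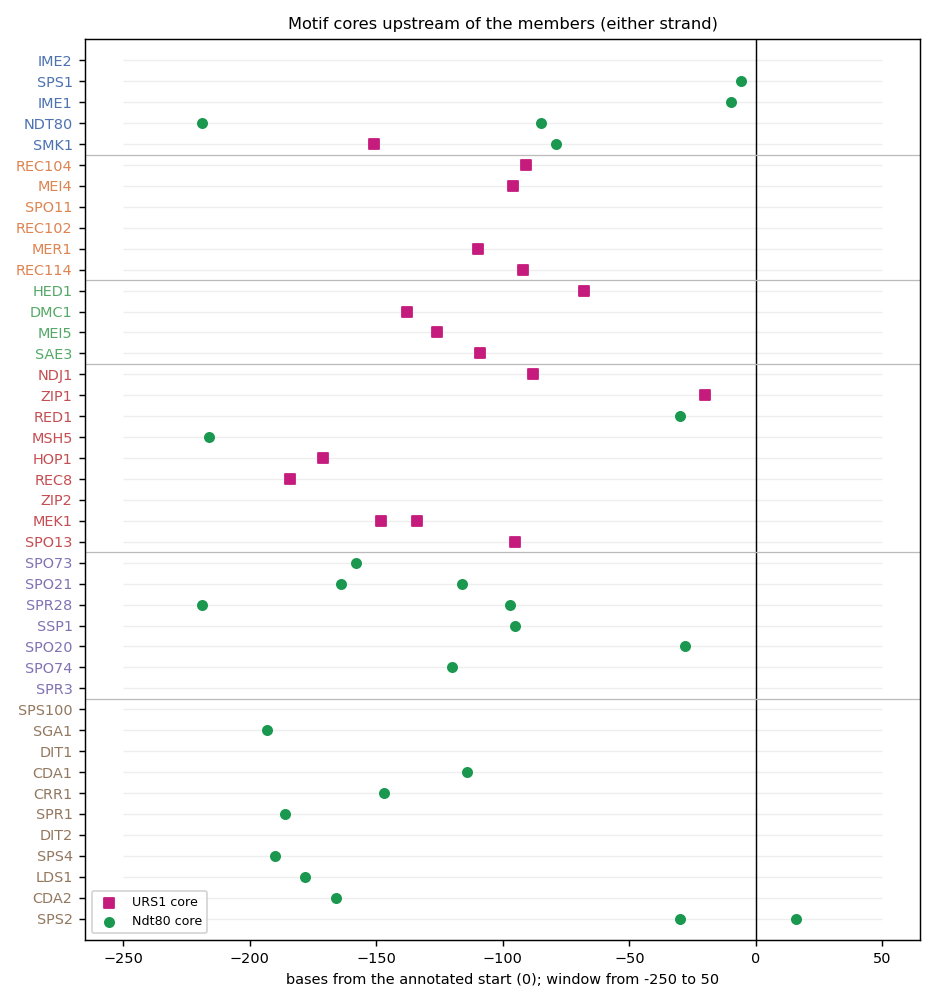
Positions of the URS1 core (squares) and the Ndt80 core (circles) in bases from the annotated start codon (x axis, window as in the text) for the 42 genes (y axis, name colours and lines separate the 6 roles). The 15 genes with URS1 are SMK1 and genes of recombination and chromosome structure, and 14 of the 20 genes with the Ndt80 core belong to the prospore membrane and spore wall.

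Most of the 42 genes were transcribed at a low but measurable level. The median of their mean RPKM over the 8 libraries was 3.87 (quartiles 2.33 and 8.08), against 29.0 (12.1 and 62.2) over all 7126 features, and 7 of the 42 (16.7%) reached a mean of 10 against 77.3% of all features. Their summed level was 324 and 317 RPKM in WT, 377 and 339 in cac2, 242 and 258 in psh1, with 301 and 328 in psh1 cac2. The sum was thus lowest in the 2 psh1 libraries. SPS100 alone gave 70.4 to 108 RPKM of it in WT and cac2, but 31.4 to 51.1 in psh1 and psh1 cac2. The order of the genotypes in the sum therefore depends in part on this 1 gene. In bulk RNA, fewer cells that transcribe a gene and less RNA per cell cannot be told apart.

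Only 4 of the 42 genes stayed below RPKM 1 in every library, and all 4 act in recombination. SAE3 (YHR079C-A), whose product works with Mei5 as an accessory of the meiotic recombinase, had 2 to 8 reads and 0.154 to 0.724 RPKM, close to the 0.231 to 0.271 RPKM that 3 reads represent on it. MEI5 (YPL121C) had 4 to 22 reads and 0.174 to 0.918 RPKM, MER1 (YNL210W), a splicing activator of meiotic transcripts, had 6 to 18 reads and 0.206 to 0.657 RPKM, and REC114 (YMR133W), a partner of the break-making enzyme, had 12 to 28 reads and 0.273 to 0.602 RPKM. None of the 4 was listed at 0 in any library. SPS2 (YDR522C), a spore wall gene, was below 1 in 6 libraries and SMK1 (YPR054W), the MAP kinase of spore wall assembly, in 5; with means of 0.769 and 0.943 RPKM they and the other four fell under the minimum mean of 1 RPKM for testing, which left 36 genes. SPO13 (YHR014W), which keeps sister chromatids together at the first division, was below 1 in 3 libraries and CDA2 in 1, and both were tested.

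SPS2 read 0.571 and 0.560 RPKM in WT, 0.803 and 0.836 in cac2, 0.483 and 0.499 in psh1, with 1.22 and 1.18 in psh1 cac2. SMK1 read 0.766 and 0.800 in WT, 1.15 and 0.818 in cac2, 0.699 and 0.980 in psh1, with 1.16 and 1.17 in psh1 cac2. Both were highest in the psh1 cac2 libraries, which did not overlap any other group. These differences carry no test.

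At the other end, 5 genes had the highest means: SPS100 (66.1 RPKM), NDJ1 (37.1), SPO73 (23.0), SGA1 (16.4) and DIT1 (13.4). SPO73 (YER046W), needed for growth of the prospore membrane, read 21.5 and 24.3 in WT, 24.8 and 22.02 in cac2, 18.8 and 24.7 in psh1, with 20.4 and 27.1 in psh1 cac2. All 4 genotypes overlapped in SPO73, and it passed the test in no comparison.

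**Figure D2:**
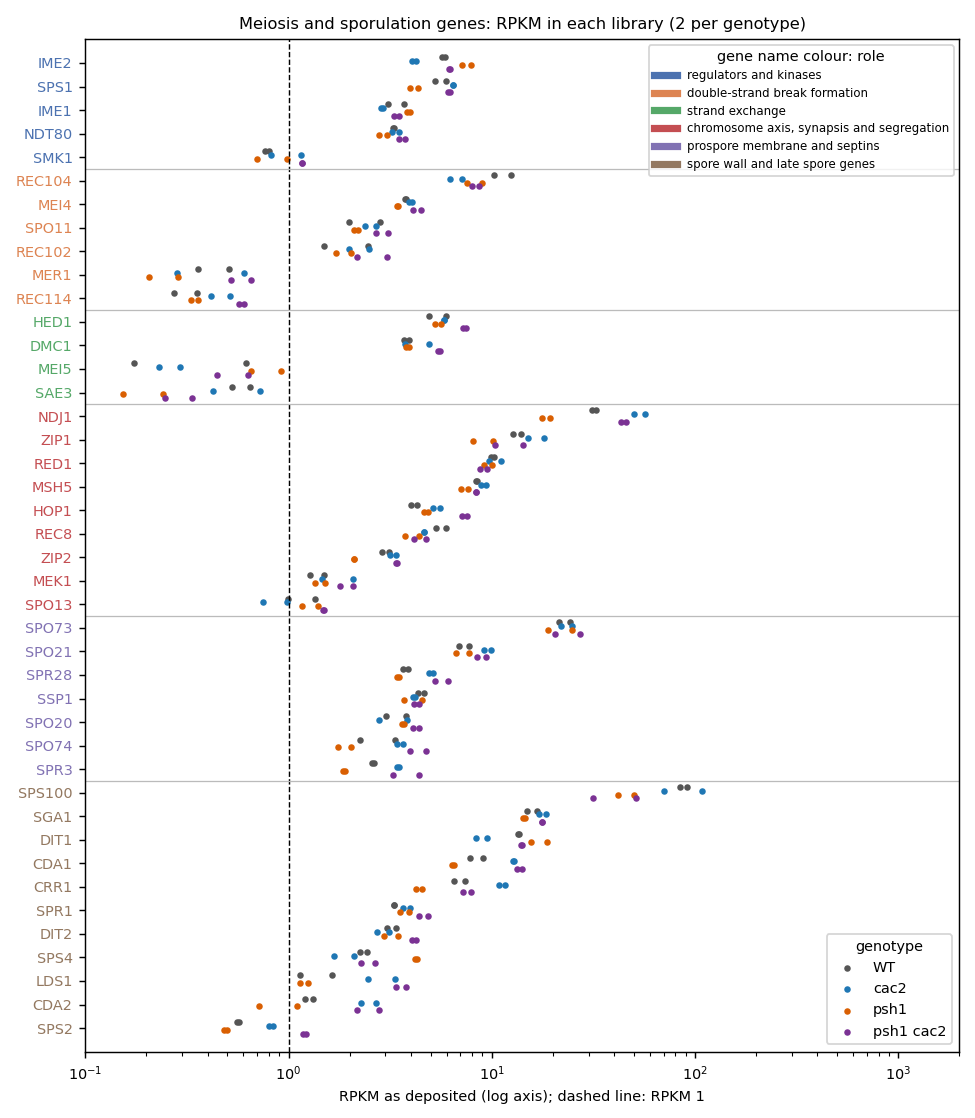
Deposited RPKM (x axis, log scale) of the 42 genes (y axis, grouped by role) in each of the 8 libraries, coloured by genotype, with a dashed line at RPKM 1. SAE3, MEI5, MER1 and REC114 lie wholly left of the line, and SPS100 and NDJ1 lie farthest right.

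Against WT, few of the genes passed the test, and they moved in both directions. The test was limma on log2(RPKM + 1) over all 8 libraries with Benjamini-Hochberg adjustment over 6366 features, and a gene was called at an adjusted p under 0.05. Log2 changes are on that scale and are not the log2 of the ratios of mean RPKM given for some genes. In cac2, 3 of 36 rose (8.33%, against 2.75% of all features tested) and 3 fell (8.33%, against 1.51%). In psh1, 2 rose (5.56%, against 7.65%) and 5 fell (13.9%, against 6.9%). In psh1 cac2, 5 rose (13.9%, against 3.86%) and 1 fell (2.78%, against 2.18%), or 5 and 2 with scaling to total reads.

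The signs over all 36 tested genes, whether called or not, leaned with the genotype. The log2 change against WT was positive for 25 of 36 genes in cac2, with a median of 0.10. It was positive for 11 genes in psh1, with a median of -0.10, and for 29 genes in the double mutant, with a median of 0.18, while the medians over all features were -0.00, -0.00 and -0.01. The 3 comparisons share the WT libraries. Genes of low level leaned the same way in part: among 1368 other features with a mean of 1 to under 16 RPKM, 64.9% were positive in cac2, against 68.8% of the 32 members in that range. For psh1 these shares were 44.9% and 34.4%, and for the double mutant 64.7% and 81.2%.

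The double mutant differed from each single mutant unequally. Against cac2, 2 genes were higher (5.56%, against 0.393% of all features) and 1 was lower (2.78%, against 0.503%). Against psh1, 14 were higher (38.9%, against 11.2%) and 1 was lower (2.78%, against 12.2%). In the range of 1 to under 16 RPKM, 12 of 32 members (37.5%) were higher in psh1 cac2 than in psh1, against 194 of the 1368 other features (14.2%). The range was chosen after the levels had been seen.

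The mating type genes also differed between genotypes. Of the 4 alpha-specific genes, 3 fell in psh1 by limma (against 6.9% of all features). On the log2 scale STE3 fell by 0.54 (adjusted p = 0.0104), MF(ALPHA)2 by 1.42 (adjusted p = 0.0132) and MF(ALPHA)1 by 0.60 (adjusted p = 0.0482). STE3 (0.65, adjusted p = 0.00158) and MF(ALPHA)2 (2.22, adjusted p = 0.00107) were higher in psh1 cac2 than in psh1 (against 11.2% of all features), the same direction as the 14 members. In that comparison MF(ALPHA)1 (0.23, adjusted p = 0.341) and SAG1 (-0.10, adjusted p = 0.182) were not called by limma, and SAG1 had the opposite sign. In cac2, 2 of the 4 fell (MF(ALPHA)1 and SAG1, against 1.51% of all features). Of the 5 a-specific genes tested, 4 fell in cac2, 3 fell in psh1 cac2 and 2 were lower in psh1 cac2 than in psh1. The shares of all features were 1.51%, 2.18% and 12.2%. The summed a-specific level was 2273 to 2437 RPKM in WT, 1620 to 1704 in cac2, 1740 to 2042 in psh1 and 1502 to 1706 in psh1 cac2, and the summed alpha-specific level was 48.3 to 52.3, 38.2 to 42.1, 34.7 to 40.1 and 46.8 to 47.8. Their part in the members' differences was not tested.

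**Figure D3:**
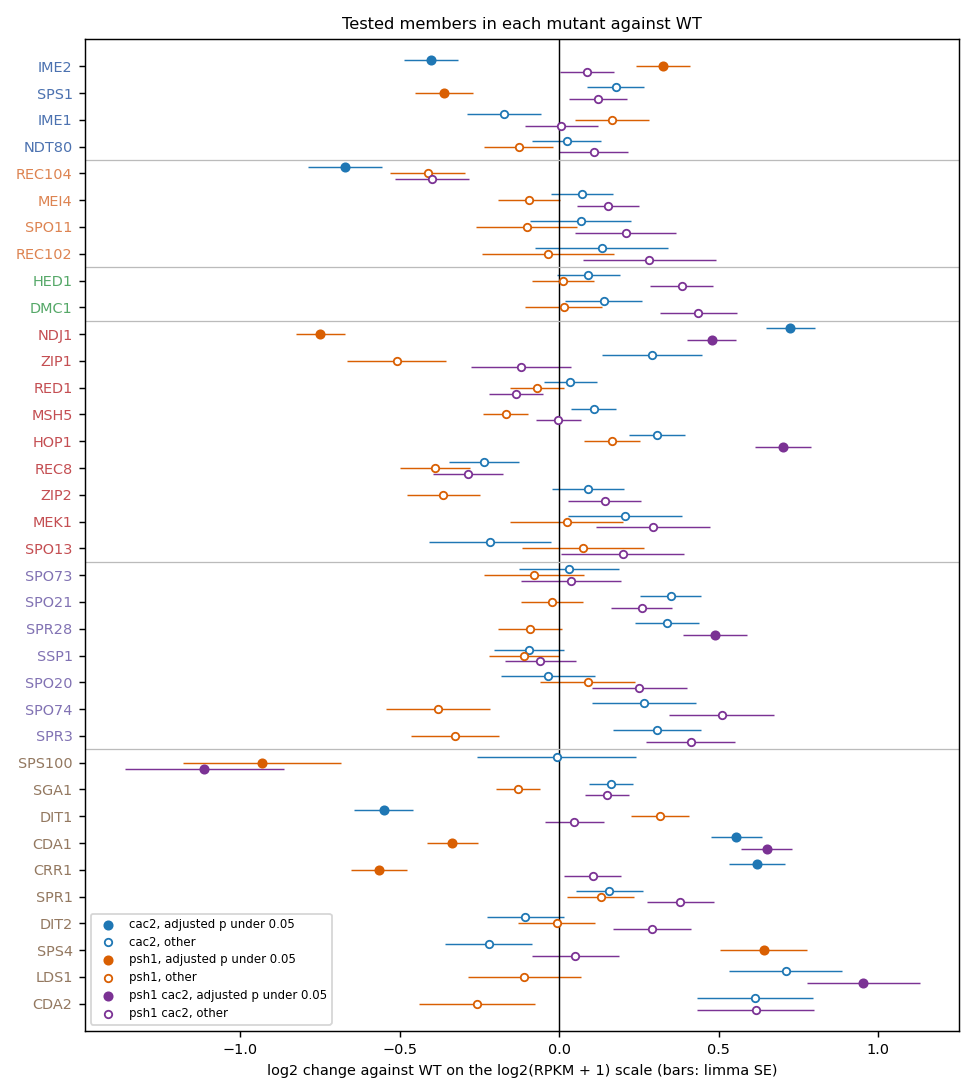
The log2 change against WT on the log2(RPKM + 1) scale (x axis, bars are limma standard errors) of the 36 tested genes (y axis, grouped by role) in cac2, psh1 and psh1 cac2, with filled points at an adjusted p under 0.05. NDJ1 is filled in all 3 mutants, to the right in cac2 and psh1 cac2 and to the left in psh1.

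Among the regulators, the entry switch and the middle-gene activator were low and passed no test. IME1 (YJR094C), the activator that starts meiosis, read 3.68 and 3.07 RPKM in WT, 2.90 and 2.84 in cac2, 3.96 and 3.84 in psh1, with 3.48 and 3.29 in psh1 cac2. NDT80 (YHR124W), the activator of the middle genes, read 3.27 and 3.30 in WT, 3.23 and 3.48 in cac2, 3.05 and 2.80 in psh1, with 3.51 and 3.73 in psh1 cac2. Neither was called in any comparison, and every library had both transcripts between 2.80 and 3.96 RPKM.

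IME2 (YJL106W), the meiosis-specific kinase that Ime1 induces, moved in opposite directions in the single mutants. It read 5.70 and 5.90 RPKM in WT, 4.26 and 4.04 in cac2, 7.93 and 7.13 in psh1, with 6.18 and 6.26 in psh1 cac2. The 4 genotypes did not overlap, with cac2 lowest and psh1 highest. The log2 change was -0.40 (SE 0.0846, adjusted p = 0.0412) in cac2, 0.33 (SE 0.0846, adjusted p = 0.0416) in psh1, and 0.49 (SE 0.0846, adjusted p = 0.0499) in psh1 cac2 against cac2. All 3 calls lay near the threshold and each was lost when any 1 of the 8 libraries was left out (adjusted p 0.0548 to 0.152, 0.0537 to 0.178 and 0.0739 to 0.295) and with only the groups compared (0.125, 0.0816 and 0.135). The first was also lost without the Ty frames (0.0633) and the last without the filter on low values (0.0544).

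SPS1 (YDR523C), a kinase needed to close the prospore membrane and build the spore wall, read 5.94 and 5.25 RPKM in WT, 6.45 and 6.44 in cac2, 4.31 and 3.94 in psh1, with 6.13 and 6.20 in psh1 cac2. The psh1 libraries were the lowest and overlapped no other group. SPS1 fell in psh1 (log2 -0.36, SE 0.0901, adjusted p = 0.0357) and was higher in psh1 cac2 than in psh1 (0.48, SE 0.0901, adjusted p = 0.00917). The first call was lost without any 1 of the 8 libraries (adjusted p 0.0537 to 0.167) or with only the groups compared (0.0924), and the second without psh1 replicate 2 or psh1 cac2 replicate 2 (0.0512 and 0.0611). Its tandem neighbour SPS2 lies 262 bp downstream on the same strand.

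Of the 6 genes of double-strand break formation, 4 were tested, and REC104 was called in cac2. Rec104 is part of the core complex around Spo11, the enzyme that cuts meiotic DNA. REC104 (YHR157W) read 12.4 and 10.3 RPKM in WT, 6.26 and 7.18 in cac2, 8.97 and 7.52 in psh1, with 8.63 and 7.999 in psh1 cac2. WT was the highest group and overlapped none of the mutants.

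The fall of REC104 in cac2 was 0.67 on the log2 scale (SE 0.117, adjusted p = 0.0179), which did not pass without WT replicate 1 or without cac2 replicate 1 (adjusted p 0.0974 to 0.108). Its change was -0.41 in psh1 (SE 0.117, adjusted p = 0.0523) and -0.40 in psh1 cac2 (SE 0.117, adjusted p = 0.0897), neither of them called. Its flanking genes LIN1 (log2 -0.03) and KEL1 (0.04) were not called in cac2. SPO11 (YHL022C) itself had 1.97 to 3.10 RPKM, REC102 (YLR329W), a further Spo11 partner, 1.50 to 3.04, and MEI4 (YER044C-A), a partner of Rec114, 3.44 to 4.48, with no call in any comparison. RPKM was computed on the whole gene span, introns included. This may lower the level of REC102, REC114, MEI4, DMC1 and SAE3, the 5 members annotated with 2 exons. Whether reads in introns were counted is not given in the sources used here.

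Both tested genes of strand exchange, DMC1 and HED1, were higher in psh1 cac2 than in psh1. DMC1 (YER179W), the meiotic recombinase, read 3.70 and 3.91 RPKM in WT, 3.73 and 4.91 in cac2, 3.91 and 3.79 in psh1, with 5.56 and 5.44 in psh1 cac2. HED1 (YDR014W-A), a meiosis-specific gene, read 5.94 and 4.89 in WT, 5.82 and 5.79 in cac2, 5.25 and 5.65 in psh1, with 7.22 and 7.46 in psh1 cac2. In both genes the psh1 cac2 libraries lay above all 6 others, which overlapped between genotypes.

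DMC1 differed between psh1 cac2 and psh1 by a log2 change of 0.42 (SE 0.121, adjusted p = 0.0409) and HED1 by 0.37 (SE 0.0984, adjusted p = 0.0326). The DMC1 call was lost without any WT, psh1 or psh1 cac2 library (adjusted p 0.0539 to 0.148), and the HED1 call without any psh1 or psh1 cac2 library (0.0775 to 0.151). Scaling to total reads also ended both calls (adjusted p 0.0757 for DMC1 and 0.0641 for HED1), and limma-voom on recovered reads ended that of HED1 (0.0512). Neither gene was called against WT.

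Among the 9 genes of chromosome axis, synapsis and segregation, NDJ1 carried the widest differences. Ndj1 tethers meiotic telomeres to the nuclear envelope. NDJ1 (YOL104C) read 31.2 and 32.5 RPKM in WT, 50.1 and 56.6 in cac2, 19.4 and 17.7 in psh1, with 43.5 and 46.0 in psh1 cac2. The 4 genotypes did not overlap, in the order psh1, WT, psh1 cac2 and cac2.

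The ratio of mean RPKM for NDJ1 was 1.68 in cac2 against WT (log2 0.72, SE 0.0770, adjusted p = 0.00113), 0.582 in psh1 (-0.75, SE 0.0770, adjusted p = 0.00546), 1.41 in psh1 cac2 (0.48, SE 0.0770, adjusted p = 0.0110) and 2.41 in psh1 cac2 against psh1 (1.23, SE 0.0770, adjusted p = 9.87e-05). The calls in cac2 and psh1 and that between psh1 cac2 and psh1 were kept in all alternatives run. The call in psh1 cac2 against WT was lost without WT replicate 1 or either psh1 cac2 library (adjusted p 0.0525 to 0.0819).

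NDJ1 lies 248 bp from a Ty retrotransposon. The Ty reading frame YOL103W-B, 545 bp upstream on the opposite strand with a mean of 1168 RPKM, was higher in cac2 by a log2 change of 0.76 (adjusted p = 0.000546), changed by -0.40 in psh1 (adjusted p = 0.0113) and by 0.53 in the double mutant (adjusted p = 0.00457). Reads of near-identical Ty copies may be split between them, so that value is uncertain. WSC3, a cell wall sensor gene 587 bp downstream on the same strand, had changes of 0.44 (adjusted p = 0.0227), -0.34 (adjusted p = 0.0295) and 0.19 (adjusted p = 0.203). By limma, YOL103W-B (0.93, adjusted p = 9.87e-05) and WSC3 (0.53, adjusted p = 0.00416) were also higher in psh1 cac2 than in psh1, as NDJ1 was. YOL103W-B, WSC3 and CSE4 RNA were likewise lower in the psh1 libraries than in WT, as NDJ1 was. The part of these neighbours and of CSE4 in the NDJ1 differences was not tested.

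HOP1 (YIL072W), a structural protein of the meiotic chromosome axis, read 4.27 and 4.03 RPKM in WT, 5.15 and 5.59 in cac2, 4.67 and 4.88 in psh1, with 7.17 and 7.57 in psh1 cac2. No genotypes overlapped, with WT lowest and psh1 cac2 highest. HOP1 rose in psh1 cac2 against WT (log2 0.70, SE 0.0871, adjusted p = 0.00454), a call lost without psh1 cac2 replicate 2 (adjusted p 0.0554). It was also higher in psh1 cac2 than in psh1 (0.54, SE 0.0871, adjusted p = 0.00563), and that call was kept in all alternatives run. SPO22, the divergent neighbour 647 bp away whose product also acts in synapsis, had 0.35 in psh1 cac2 against WT (adjusted p = 0.0741) and was higher in psh1 cac2 than in psh1 (0.34, adjusted p = 0.0402).

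ZIP2 (YGL249W), which starts assembly of the synaptonemal complex, read 3.14 and 2.87 RPKM in WT, 3.14 and 3.38 in cac2, 2.11 in both psh1 libraries and 3.40 and 3.44 in psh1 cac2. The psh1 libraries were the lowest. ZIP2 was higher in psh1 cac2 than in psh1 (log2 0.51, SE 0.114, adjusted p = 0.0189), a call lost without any psh1 or psh1 cac2 library (adjusted p 0.0692 to 0.101). ZIP2 overlaps the non-coding RNA RME3 on the opposite strand, and since the strand setting of the counting is not given in the sources used here, their reads cannot be told apart. The other 6 genes of this role were called in no comparison. The axis protein gene RED1 (YLR263W) had 8.80 to 11.1 RPKM, ZIP1 (YDR285W), of the synaptonemal complex's central part, 8.04 to 18.0, the crossover gene MSH5 (YDL154W) 7.06 to 9.36, the meiotic cohesin gene REC8 (YPR007C) 3.75 to 5.97, the axis kinase gene MEK1 (YOR351C) 1.28 to 2.08 and SPO13 0.747 to 1.49.

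Of the 7 prospore membrane and septin genes, 3 were called, each with its highest mean in psh1 cac2. SPR28 (YDR218C), a septin made during sporulation, read 3.86 and 3.67 RPKM in WT, 5.12 and 4.94 in cac2, 3.44 and 3.51 in psh1, with 6.12 and 5.27 in psh1 cac2. SPR3 (YGR059W), its sporulation-specific partner septin, read 2.57 and 2.63 in WT, 3.51 and 3.40 in cac2, 1.89 and 1.85 in psh1, with 4.37 and 3.28 in psh1 cac2. SPO74 (YGL170C), a component of the meiotic outer plaque of the spindle pole body, read 3.34 and 2.25 in WT, 3.40 and 3.64 in cac2, 1.76 and 2.02 in psh1, with 4.76 and 3.97 in psh1 cac2. In all 3 genes psh1 was the lowest group and did not overlap psh1 cac2.

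SPR28 rose in psh1 cac2 against WT (log2 0.49, SE 0.100, adjusted p = 0.0302), a call lost without any WT, psh1 or psh1 cac2 library (adjusted p 0.0526 to 0.193) or with only the groups compared (0.0822). Its difference between psh1 cac2 and psh1 (0.58, SE 0.100, adjusted p = 0.00693) was kept in all alternatives run. Between the same genotypes the mean RPKM of SPR3 was 2.04 times as high and that of SPO74 2.31 times as high. Their changes in log2(RPKM + 1) were 0.74 (SE 0.139, adjusted p = 0.00943) and 0.89 (SE 0.164, adjusted p = 0.00882). The SPR3 call was lost without psh1 cac2 replicate 1 (adjusted p 0.0549) and the SPO74 call without psh1 replicate 1 or psh1 cac2 replicate 1 (0.0530 and 0.0583). The other four genes were called nowhere: the outer plaque gene SPO21 (YOL091W) had 6.65 to 9.96 RPKM, SPO20 (YMR017W), a membrane fusion protein of the prospore membrane, 2.78 to 4.37, SSP1 (YHR184W), of the membrane's leading edge, 3.69 to 4.65, and SPO73 the values given above.

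The spore wall and late spore genes held the most calls. CDA1 (YLR307W), a chitin deacetylase that makes the chitosan layer, read 9.05 and 7.79 RPKM in WT, 12.8 and 12.9 in cac2, 6.53 and 6.38 in psh1, with 14.2 and 13.4 in psh1 cac2. CDA2 (YLR308W), the second chitin deacetylase, read 1.33 and 1.21 in WT, 2.27 and 2.69 in cac2, 0.714 and 1.10 in psh1, with 2.80 and 2.18 in psh1 cac2. In both genes psh1 was lowest, WT next, and cac2 and psh1 cac2 highest, and these last overlapped in CDA2.

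CDA1 rose in cac2 (log2 0.56, SE 0.0791, adjusted p = 0.00622) and in psh1 cac2 (0.65, SE 0.0791, adjusted p = 0.00454), fell in psh1 (-0.34, SE 0.0791, adjusted p = 0.0296), and was higher in psh1 cac2 than in psh1 (0.99, SE 0.0791, adjusted p = 0.000141). The first and the last of these were kept in all alternatives run. The call in psh1 cac2 was lost without psh1 cac2 replicate 2 (adjusted p 0.0554), and that in psh1 without WT replicate 1 or either psh1 library (0.102 to 0.132) or with only the groups compared (0.0831). The mean RPKM of CDA2 was 2.74 times as high in psh1 cac2 as in psh1. Its change in log2(RPKM + 1) was 0.87 (SE 0.182, adjusted p = 0.0141). That call was lost without psh1 replicate 1 or psh1 cac2 replicate 1. Over the fits with 1 library left out, the change was 0.73 to 1.02.

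CDA1 and CDA2 flank DPA10, which is transcribed from the opposite strand, 322 bp after CDA1 and 825 bp before CDA2. DPA10 had a mean of 110 RPKM. Its log2 change was 0.78 in cac2 (adjusted p = 0.00576), -0.62 in psh1 (adjusted p = 0.0122) and 0.65 in the double mutant (adjusted p = 0.0138), with 1.27 between psh1 cac2 and psh1 (adjusted p = 0.000203). The gene before CDA1, UBC12 (-0.11, -0.08 and -0.10 against WT), and the one after CDA2, IMH1 (-0.00, 0.03 and -0.14), were not called. The 3 adjacent genes thus had changes of the same sign in each mutant, and the part of DPA10 in the CDA1 and CDA2 values was not tested.

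CRR1 (YLR213C), a putative glycosidase of the spore wall, read 6.54 and 7.42 RPKM in WT, 11.6 and 10.9 in cac2, 4.23 and 4.55 in psh1, with 7.25 and 7.90 in psh1 cac2. The cac2 libraries were highest and the psh1 libraries lowest, and WT and psh1 cac2 overlapped. CRR1 rose in cac2 (log2 0.62, SE 0.0890, adjusted p = 0.00650), fell in psh1 (-0.57, SE 0.0890, adjusted p = 0.0104), was lower in psh1 cac2 than in cac2 (-0.51, SE 0.0890, adjusted p = 0.0499) and higher in psh1 cac2 than in psh1 (0.67, SE 0.0890, adjusted p = 0.00224). The difference from psh1 was kept in all alternatives run. The rise in cac2 did not pass without cac2 replicate 1 (adjusted p 0.0606), that in psh1 without either psh1 library (0.0526 and 0.0535), and that against cac2 without any 1 of the 8 libraries (0.0625 to 0.345). The call against cac2 was also lost with a pseudocount of 0.1 (0.0530), without the filter (0.0650) and with only the groups compared (0.0942). The ferric reductase gene FRE1, divergent from it at 644 bp, fell in psh1 (-1.19, adjusted p = 0.0153) and was not called in cac2 (0.49, adjusted p = 0.241). By limma, FRE1 was also higher in psh1 cac2 than in psh1 (1.05, adjusted p = 0.0147), as CRR1 was. The part of FRE1 in the CRR1 values was not tested.

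LDS1 (YAL018C), a lipid droplet protein of spore wall assembly, read 1.63 and 1.13 RPKM in WT, 3.35 and 2.46 in cac2, 1.25 and 1.14 in psh1, with 3.39 and 3.79 in psh1 cac2. The libraries of both genotypes with the cac2 mutation lay above all of those without it. The mean RPKM of LDS1 in psh1 cac2 was 2.60 times that in WT and 3.00 times that in psh1. The changes in log2(RPKM + 1) were 0.95 (SE 0.177, adjusted p = 0.0204) and 1.06 (SE 0.177, adjusted p = 0.00600). The second was kept in all alternatives run, and the first was lost without WT replicate 2 or either psh1 cac2 library (adjusted p 0.0802 to 0.124). In cac2 the change of 0.71 (SE 0.177, adjusted p = 0.0700) was not called.

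DIT1 and SPS4 showed the opposite order. DIT1 (YDR403W), the first enzyme of dityrosine synthesis for the outer spore wall, read 13.4 and 13.6 RPKM in WT, 8.33 and 9.48 in cac2, 15.6 and 18.6 in psh1, with 14.0 and 13.9 in psh1 cac2. SPS4 (YOR313C), a late sporulation gene, read 2.26 and 2.44 in WT, 2.09 and 1.66 in cac2, 4.27 and 4.17 in psh1, with 2.67 and 2.28 in psh1 cac2. In both, cac2 was lowest and psh1 highest without overlap.

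DIT1 fell in cac2 (log2 -0.55, SE 0.0917, adjusted p = 0.0142) and was higher in psh1 cac2 than in cac2 (0.60, SE 0.0917, adjusted p = 0.0397). The first call was lost without either WT library or cac2 replicate 1 (adjusted p 0.0520 to 0.0942), and the second without any WT, cac2 or psh1 cac2 library (0.0582 to 0.277), without the filter (0.0545) or with only the groups compared (0.0661). DIT2 (YDR402C), the enzyme of the second step, is transcribed away from DIT1 at a distance of 898 bp, stood at 2.72 to 4.25 RPKM and was called nowhere. SPS4 rose in psh1 (0.64, SE 0.136, adjusted p = 0.0213) and was lower in psh1 cac2 than in psh1 (-0.59, SE 0.136, adjusted p = 0.0202). The first was lost without any WT or psh1 library (adjusted p 0.0663 to 0.104), the second without either psh1 library or psh1 cac2 replicate 2 (0.0810 to 0.120).

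SPS100 (YHR139C), which protects the maturing spore wall, was the most abundant of the 42. It read 91.6 and 84.3 RPKM in WT, 108 and 70.4 in cac2, 41.6 and 49.9 in psh1, with 31.4 and 51.1 in psh1 cac2. Both genotypes with the psh1 mutation lay below all WT and cac2 libraries, and duplicates differed widely in cac2 and psh1 cac2. SPS100 fell in psh1 (log2 -0.93, SE 0.249, adjusted p = 0.0448) and in psh1 cac2 (-1.11, SE 0.249, adjusted p = 0.0416). The first call was lost without any WT or psh1 library (adjusted p 0.0949 to 0.189) and the second without any WT, psh1 or psh1 cac2 library (0.0554 to 0.177). Without the filter neither passed (0.0601 and 0.0564), nor did the second with only the groups compared (0.0580) or without the Ty frames (0.0544). The stable non-coding transcript SUT169 overlaps SPS100 on the opposite strand, and their reads may be mixed.

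SGA1 (YIL099W), the sporulation glucoamylase that breaks down glycogen, read 15.0 and 16.7 RPKM in WT, 18.6 and 17.1 in cac2, 14.3 and 14.5 in psh1, with 17.6 and 17.7 in psh1 cac2. The psh1 libraries were lowest, close to WT. SGA1 was higher in psh1 cac2 than in psh1 (log2 0.28, SE 0.0688, adjusted p = 0.0254). That call was lost without any psh1 or psh1 cac2 library (adjusted p 0.0823 to 0.118) and under scaling to total reads (0.113). SPR1 (YOR190W), an exoglucanase of sporulation, had 3.31 to 4.83 RPKM and was called nowhere.

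**Figure D4:**
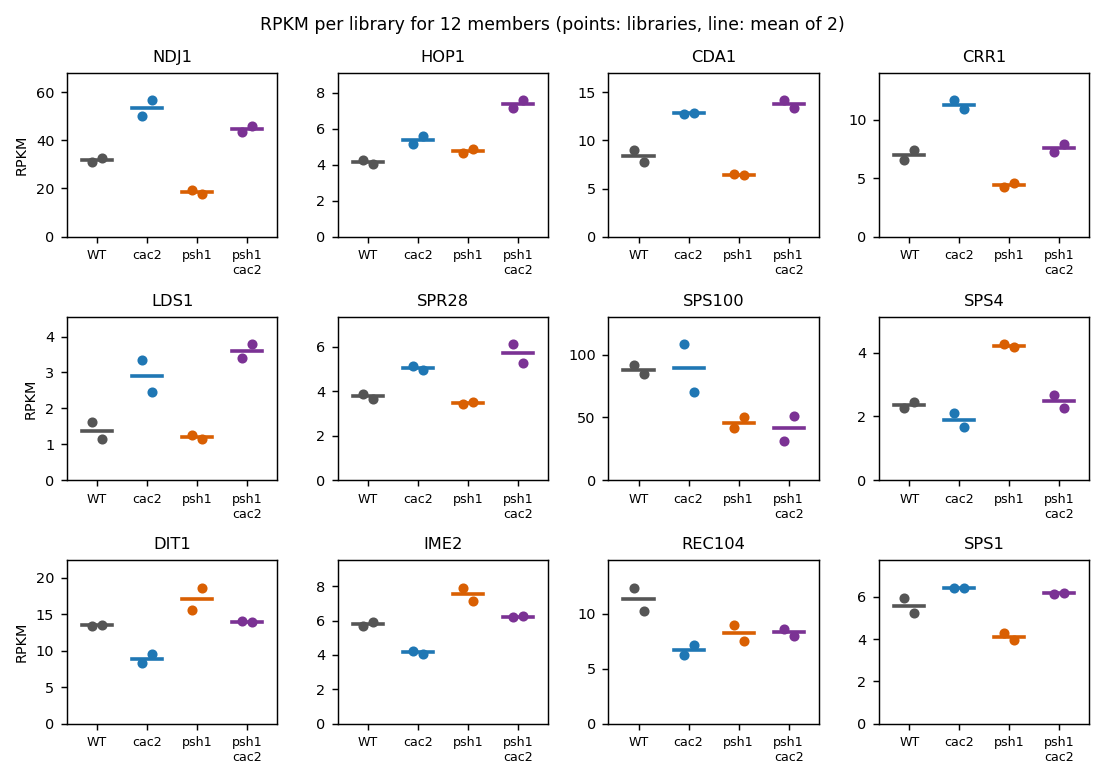
RPKM (y axis, from 0) of 12 of the 42 genes in the 8 libraries by genotype (x axis), with points for libraries and a line at the mean of 2. NDJ1, CDA1 and CRR1 are lowest in psh1, DIT1, IME2 and SPS4 are highest there, and HOP1 is highest in psh1 cac2.

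In the full fit, the genes called higher in psh1 cac2 than in psh1 came from all roles but 1. These were 5 of 10 tested spore wall genes, 3 of 7 prospore membrane genes and 3 of 9 axis and segregation genes. Both tested strand exchange genes and 1 of 4 regulators were also higher, and 0 of 4 break formation genes. Of all features tested, 11.2% were higher. The calls of both strand exchange genes and of the regulator SPS1 were each lost in some alternatives, as given above, and 2 of the 4 regulators had negative changes. The median log2 difference over the 36 genes was 0.28, against -0.02 over all features, and 30 of 36 were positive, against 46.5% of all features. In the range of 1 to under 16 RPKM, the median was 0.29 over the members and 0.08 over the other features. There, 84.4% of the members and 63.8% of the other features were positive. Among the 14 higher genes the URS1 core was present in 4 (28.6%) and the Ndt80 core in 8 (57.1%), against 6 (27.3%) and 10 (45.5%) of the other 22 tested genes. With scaling to total reads instead, 11 were higher and 3 lower, and the median over all features shifted to -0.15.

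**Figure D5:**
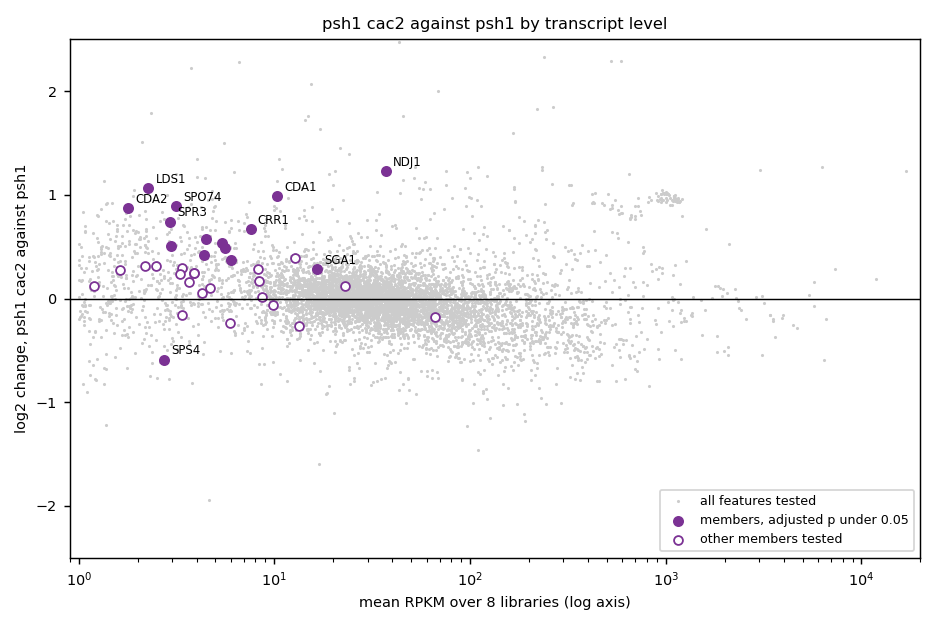
The log2 change of psh1 cac2 against psh1 (y axis) by mean RPKM over the 8 libraries (x axis, log scale) for all features tested (grey) and the members (purple, filled at an adjusted p under 0.05), with 9 of the 15 called genes named and 3 features beyond the axes. The members sit at low levels, where grey points also lie more often above 0, and SPS4 is the one filled point below 0.

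Whether the psh1 mutation acted differently in the presence and absence of Cac2 was tested as the interaction of both mutations. By limma, 0 of the 36 genes passed in either direction (against 0.0157% of all features in the positive and 0% in the negative direction). At an unadjusted p under 0.05 there were 7 in the positive and 0 in the negative direction, against 6.69% and 6.91% of all features, and limma-voom on the recovered reads also called 0. The smallest adjusted p was that of NDJ1 (log2 0.50, SE 0.109, adjusted p = 0.154), before REC104 (0.69, SE 0.165, adjusted p = 0.165) and CDA1 (0.43, SE 0.112, adjusted p = 0.190). The interaction was positive for 32 of the 36 genes, against 48% of all features. In the range of 1 to under 16 RPKM, it was positive for 90.6% of the members and 56.7% of the 1368 other features. A positive value means that the difference of psh1 cac2 from WT exceeded the sum of the differences of both single mutants from WT on the log2 scale.

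Lists of related genes gave the following counts. Of 26 other sporulation genes, 2 rose in cac2 and 0 fell (against 2.75% and 1.51% of all features), 0 rose and 4 fell in psh1 (7.65% and 6.9%), and 1 rose and 1 fell in psh1 cac2 (3.86% and 2.18%). Between psh1 cac2 and psh1, 9 were higher and 0 lower by limma (11.2% and 12.2%). SPO1, a phospholipase-like protein of spindle pole body duplication in meiosis, rose in cac2 (log2 0.47, adjusted p = 0.0104) and in the double mutant (0.56, adjusted p = 0.00494) and fell in psh1 (-0.34, adjusted p = 0.0235). IRC18, an outer spore wall gene, rose in cac2 (0.72, adjusted p = 0.00858), fell in psh1 (-0.82, adjusted p = 0.00834) and stood at 0.40 in the double mutant (adjusted p = 0.0733). Of 14 other meiotic chromosome genes tested by limma, 0 were called against WT in any mutant. In psh1 cac2 against psh1, 4 of them were higher and 0 lower (against 11.2% and 12.2% of all features). The 4 were PCH2, ECM11, SPO22 and MAM1, by 0.60, 0.71, 0.34 and 0.54. Of 20 regulators of entry tested by limma, 0 were called in cac2 and in psh1 cac2. In psh1, 2 rose and 1 fell (against 7.65% and 6.9% of all features). The RNA-binding regulator gene RIM4 (0.34, adjusted p = 0.0273) and the corepressor gene CYC8 (0.27, adjusted p = 0.0209) rose. The kinase gene RIM15 (-0.20, adjusted p = 0.0495) fell. Between psh1 cac2 and psh1, 2 of the 20 were higher and 3 lower (against 11.2% and 12.2% of all features). The 3 lower were CYC8 (-0.43, adjusted p = 0.00214), its partner gene TUP1 (-0.35, adjusted p = 0.00979) and RIM4 (-0.30, adjusted p = 0.0314).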

How the data were processed

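The authors deposited 1 table of linear RPKM values, with 7126 features and 8 libraries. Per the labels' protocols, ribosomal RNA was depleted from 1000 ng of total RNA and stranded libraries were made. Named without a role in the submitters' processing notes are sacCer3, TopHat2 2.0.13, edgeR 3.14.0 and bcl2fastq 2.18. Not given in the sources used here are the annotation, the tool that counted reads and whether it used strand.

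By locus tag 6048 features matched the RefSeq annotation of R64. Of their values, 99.808% were whole reads within 0.01 at the gene's span, introns included, and 6036 features, all 42 members among them, gave whole reads in every library at a reference length. The other 1090 were put at the smallest length that gave whole reads, which may understate their reads; they held 6.81 to 8.42% of the recovered total. Library sizes were 0.932 to 1.07 times that total. A value of 3 reads on 1 kb corresponds to 0.0837 to 0.0982 RPKM, which covers counting error only.

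Differences were tested with limma 3.58.1 (R 4.3.3; linear model with an intensity trend, two-sided) on log2(RPKM + 1), which understates the change of low genes. Features needed a mean of 1 RPKM, which kept 6366 and left 760. The fit used genotype only, over all 8 libraries with 4 residual degrees of freedom. It was run on simulated reads with the same spread beyond counting error for every feature and no effect of replicate number. That check does not cover duplicates that differ more widely. The alternatives were a pseudocount of 0.1, no filter, only the groups compared, scaling to total reads, limma-voom on recovered reads, no Ty frames, a replicate block, and leaving out each library.

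Values in every library were given for each member past the threshold in a comparison, for the 5 highest means and for IME1, IME2 and NDT80; members below RPKM 1 throughout were named, and the rest given by range. Of the context lists, up to 4 genes past the threshold could be named. The members and lists were chosen with earlier results of these data known. Promoter sequences were cut from the RefSeq R64 genome.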

Additional observations from a re-analysis of the deposited data

How the results depend on the processing

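No called gene reversed its sign in any of the 555 refits of 37 calls, 134 of which lost the threshold, and 9 calls were kept throughout (NDJ1 and CDA1 in cac2, NDJ1 in psh1, and NDJ1, CDA1, CRR1, LDS1, HOP1 and SPR28 in psh1 cac2 against psh1). With 2 libraries a genotype, single libraries decided many calls. Leaving out each library in turn, the members called numbered 2 to 5 in cac2 (6 with all libraries; 3 without WT replicate 1, 2 without cac2 replicate 1), 1 to 6 in psh1 (7; 2 without WT replicate 1 or psh1 replicate 1, 3 without WT replicate 2, 1 without psh1 replicate 2), 0 to 7 in psh1 cac2 (6; 3 without either WT library, 2 and 0 without psh1 cac2 replicates 1 and 2), 0 to 1 in psh1 cac2 against cac2 (3) and 9 to 15 in psh1 cac2 against psh1 (15; 9 without any psh1 or psh1 cac2 library). In psh1 cac2 against cac2, 0 members were called by limma without the filter and 0 with only the groups compared. In the full fit of that comparison, 7 of the 36 tested members were positive and 4 negative at an unadjusted p under 0.05. Of all features, 11.8% were positive and 12% negative at that threshold. With a replicate block, 11 members were called in psh1, 11 in psh1 cac2 and 5 in psh1 cac2 against cac2, and the other comparisons changed by less than 1.5 times. The difference of replicate 1 from replicate 2 within each genotype was correlated between genotypes over the features. The correlation of WT was 0.309 with cac2, 0.34 with psh1 and 0.335 with psh1 cac2. That of psh1 with psh1 cac2 was 0.443, and that of cac2 was 0.0536 with psh1 and 0.038 with psh1 cac2. The labels do not say that a number marks a shared day or batch, and 2 numbers a genotype are too few to show it, so the fit without the block was kept. When libraries were scaled to total reads, the median change over all features became -0.13 in cac2 and -0.15 in psh1 cac2 against psh1, the number of members called in each comparison moved by less than 1.5 times, and the split in psh1 cac2 against psh1 went from 14 higher and 1 lower to 11 and 3. Depth limits the 4 genes below RPKM 1, which had 2 to 28 reads.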
